A study of Mus musculus with 5 samples.

Results

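Complement components and regulators were examined as a group of 9 genes. These were Cd55, Cd59a, Cd46, C3, C2, Cfp, Serping1, C3ar1 and Cd93, chosen by name from the complement system, with the C1q subunits left out. The choice was made with earlier results of these data known, so counts of members beside shares over all genes are descriptive. A probe set that names 1 gene was found for 8 of the 9, out of 19938 genes measured in that way, and each of the 8 had a single probe set. C3, the central component, had no probe set of its own in the platform table and is not analysed here. The samples were 5 whole-transcript mouse arrays with 1 array in each of 5 groups, so no group had a replicate. The embryonic stem cell (ESC) arrays were 2i ESCs and S ESCs, and the mouse embryonic fibroblast (MEF) arrays were control MEFs, 4n 2i MEFs and 2n 2i MEFs. All cells, the controls included, had the background F1 of 129X1/SvJ X MSM/Ms. The label 2i usually means culture with inhibitors of the kinases MEK and GSK3. S, 2n and 4n are not explained in the labels and serve as names. In their titles, 2i ESCs and 2n 2i MEFs carried the same leading number (15), whereas S ESCs had 36, control MEFs 4 and 4n 2i MEFs 2. No age of embryo, clone history or pooling is given in the sources used here.

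Complement is a cascade of plasma and tissue proteins that marks cells and microbes for clearance. The classical and lectin routes cleave C4 and C2, the alternative route is stabilised by properdin, and all meet at the cleavage of C3. Host cells carry membrane proteins that take the convertases apart or block the membrane attack complex, and small fragments released by the cascade signal through receptors on myeloid cells. Fibroblasts are a known source of several secreted complement proteins and regulators, and macrophages express many of the receptors.

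Promoter sequences, the 250 bases before the start of each gene, are shown for the 4 members whose levels carry the comparisons below and that the RefSeq promoter table (build GRCm38.p6) held. That table held 6 of the 9 members. Capitals mark any match, on either strand, to GAGGAA (the core of the PU.1 site of myeloid cells) or GGGCGG (the GC box). No matches of different motifs overlapped in these sequences.
C3ar1 (chr6:122856158-122856407, minus strand): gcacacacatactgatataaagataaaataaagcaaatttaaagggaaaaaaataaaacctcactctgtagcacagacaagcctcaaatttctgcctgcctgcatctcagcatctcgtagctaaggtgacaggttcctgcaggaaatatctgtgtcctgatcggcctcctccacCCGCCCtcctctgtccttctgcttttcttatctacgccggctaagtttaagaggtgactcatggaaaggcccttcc
Cfp (chrX:20931556-20931805, minus strand): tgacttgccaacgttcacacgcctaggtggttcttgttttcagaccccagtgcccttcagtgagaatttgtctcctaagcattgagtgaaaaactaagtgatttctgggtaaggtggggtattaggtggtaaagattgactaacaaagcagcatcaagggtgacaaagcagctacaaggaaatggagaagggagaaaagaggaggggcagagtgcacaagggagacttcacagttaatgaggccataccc
Cd55 (chr1:130462745-130462994, minus strand): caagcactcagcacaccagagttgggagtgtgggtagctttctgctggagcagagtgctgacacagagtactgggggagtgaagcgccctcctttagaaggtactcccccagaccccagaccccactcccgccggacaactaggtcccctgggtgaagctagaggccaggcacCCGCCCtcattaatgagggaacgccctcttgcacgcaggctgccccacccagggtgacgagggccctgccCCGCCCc
Cd59a (chr2:104095551-104095800, plus strand): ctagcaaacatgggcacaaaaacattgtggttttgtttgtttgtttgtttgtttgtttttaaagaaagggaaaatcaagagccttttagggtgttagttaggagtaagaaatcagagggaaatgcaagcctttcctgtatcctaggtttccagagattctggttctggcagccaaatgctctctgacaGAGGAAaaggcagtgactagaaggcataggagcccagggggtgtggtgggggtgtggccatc

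The Cd55 promoter held 2 GC boxes and C3ar1 held 1, while Cd59a held 1 match to GAGGAA. The Cfp window held neither motif. Among 32851 promoter windows of the same length, 32.7% held GGGCGG and 23.3% held GAGGAA. CpG dinucleotides numbered 8 in the Cd55 window, 5 in C3ar1, 2 in Cfp and 0 in Cd59a, against a median of 6 over all windows. These matches describe the letters only.

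Levels are given in the authors' linear intensity units. Each array was given a floor, its median over probe sets of 1 gene, and the floors lay between 222 and 242 units. A pair of arrays was compared for genes whose brighter value was at or above the floor there. Below a floor an unknown part of the signal is background, which affects any fold set against it. The cell labels were checked on marker genes. All 6 pluripotency markers reached the floor on both ESC arrays and 0 on any MEF array, and all 9 measured fibroblast markers reached it on every MEF array, against 4 on the 2i ESC and 5 on the S ESC array. On the 4n 2i MEF array 12 of 15 macrophage markers reached the floor, against 3 on each other MEF array and 2 or 3 on the ESC arrays. Their summed intensity was 22587 on the 4n array, 2851 on the control array and 2333 on the 2n array. On the 2i and S ESC arrays it was 6111 and 4794, of which the listed marker Laptm5 alone gave 4350 and 3240. In bulk samples such as these, fewer cells of a type and less RNA per cell cannot be told apart. Identical deposited values stood on both arrays for 37.4% to 45.4% of probe sets in each pair of MEF arrays, so a difference of exactly 0 there is not read as measured equality.

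**Figure D1:**
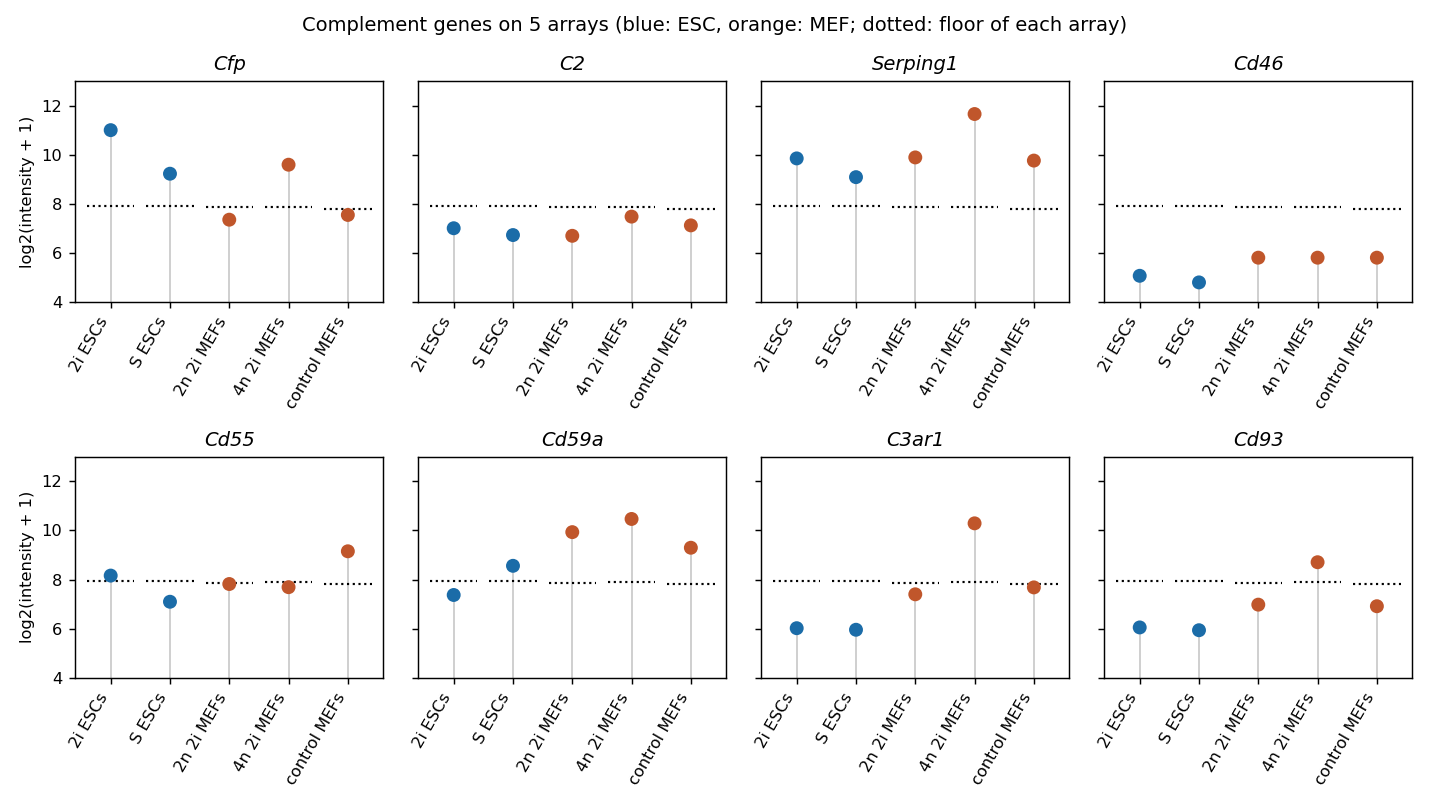
Level of each measured complement gene, as log2(intensity + 1), on the 5 arrays (1 point per array, blue for ESC and orange for MEF), with a dotted line at the floor of each array. Serping1, C3ar1, Cd93 and Cd59a have their highest point on the 4n 2i MEF array, Cfp on the 2i ESC array and Cd55 on the control MEF array, while C2 and Cd46 stay below the floor throughout.

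Cfp encodes properdin, the plasma protein that stabilises the convertase of the alternative route and the pathway's positive regulator. Its intensity was 2047 on the 2i ESC array, 598 on the S ESC array, 162 on the 2n 2i MEF array, 771 on the 4n 2i MEF array and 186 on the control MEF array. The order from high to low was 2i ESCs, 4n 2i MEFs, S ESCs, control MEFs and 2n 2i MEFs, and the last pair lay below the floor. The values ranged 12.5-fold, and the 4n 2i MEF array fell between the ESC arrays, so the cell types overlapped.

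C2, the protease of the classical and lectin convertase, was below the floor on all 5 arrays, with intensities between 103 on the 2n array and 177 on the 4n array. Serping1 encodes C1 inhibitor, the serpin that inactivates C1r, C1s and the lectin route's proteases. It reached the floor on every array, with 921 units on the 2i ESC array, 542 on the S ESC array, 947 on the 2n 2i MEF array, 3228 on the 4n 2i MEF array and 866 on the control MEF array. The 4n array stood apart from the other MEF arrays, which lay close to the 2i ESC array.

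Among membrane regulators, Cd55 encodes decay-accelerating factor, which dissociates the convertases. Its intensity was 285 on the 2i ESC array, 136 on the S ESC array, 224 on the 2n 2i MEF array, 205 on the 4n 2i MEF array and 567 on the control MEF array. The control MEF array was the highest and the 2i ESC array the other one above its floor. Cd59a encodes an inhibitor of the membrane attack complex. It read 164 on the 2i ESC array, 376 on the S ESC array, 974 on the 2n 2i MEF array, 1413 on the 4n 2i MEF array and 627 on the control MEF array. Every MEF array was above both ESC arrays, and each 2i MEF array was above the control. Cd46, a cofactor for C3b cleavage that is restricted largely to the testis in mice, was far below the floor, at 32.5 and 26.8 units on the 2i and S ESC arrays and at the same deposited value of 54.9 on all 3 MEF arrays.

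The receptors were both highest on the 4n array. C3ar1 encodes the receptor for the C3a fragment, found mainly on myeloid cells. Its intensity was 63.8 on the 2i ESC array, 61.0 on the S ESC array, 168 on the 2n 2i MEF array, 1249 on the 4n 2i MEF array and 204 on the control MEF array. Only the 4n array reached the floor. Cd93 encodes a lectin-like membrane protein of endothelial and myeloid cells, once named as a C1q receptor. It read 65.2 on the 2i ESC array, 60.2 on the S ESC array, 125 on the 2n 2i MEF array, 416 on the 4n 2i MEF array and 119 on the control MEF array. It too reached the floor on the 4n array alone.

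ESC arrays were compared with MEF arrays to ask how the cell types differ. Cd59a was the 1 member that passed, lower in ESCs by 1.93 on the log2 scale (3.82-fold), at 7.96 ± 0.84 (log2, SD, n = 2) against 9.90 ± 0.59 (SD, n = 3). Its adjusted p in limma was 0.0311, with an SE of 0.51 and a 95% interval from -3.30 to -0.57. This is 1 of 6 members tested, lower, and 0 higher, where 16.3% of the 11826 genes tested were called lower and 16.6% higher, so the share called lower stood close to the background. Calls needed 2-fold or more and an adjusted p below 0.05. Identical values on at least 2 MEF arrays stood for 33.2% of the genes tested, so limma took no spread between those arrays for them. The 6 members tested each had 3 distinct MEF values. The spread here is that between conditions of a cell type, since no condition was repeated and the labels name no separate cultures or embryos.

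The other members did not pass. The log2 difference, ESC minus MEF, was -2.47 for C3ar1 (SE 0.97, adjusted p in limma 0.0883) and -1.54 for Cd93 (SE 0.62, adjusted p in limma 0.0943), and for both every ESC value lay below every MEF value. Both genes entered the test through the 4n array alone. Serping1 had -0.97 (adjusted p in limma 0.279) and Cd55 -0.59 (adjusted p in limma 0.430), with overlapping cell types. For Cfp the difference was 1.95 (SE 0.93, adjusted p in limma 0.136).

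Single arrays decided calls in this comparison. The call of Cd59a was lost without the 2i ESC array (difference -1.34, adjusted p in limma 0.187), without the S ESC array (-2.53, 0.0686), without the 2n 2i MEF array (-1.92, 0.0824) and without the 4n 2i MEF array (-1.65, 0.0604). It was kept without the control MEF array (-2.23, adjusted p in limma 0.0319). Where 1 ESC array remained, limma took its spread to be that of the MEF arrays. Without the 4n 2i MEF array, Cfp passed as higher in ESCs (difference 2.66, adjusted p in limma 0.0376), and C3ar1 and Cd93 no longer reached a floor.

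The 2i ESC and S ESC arrays, whose titles carry different numbers, were compared as groups of different name. Cfp was 3.42-fold higher on the 2i array (log2 difference 1.77) and Cd55 2.09-fold higher (1.07). Cd59a was 2.28-fold lower (-1.19). Serping1 lay within 2-fold (0.76). The C3ar1, Cd93, C2 and Cd46 probe sets were below the floor on both arrays.

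Of the 8 measured members 4 entered, and 2 of these were thus at least 2-fold higher and 1 lower. Over all 10461 genes entered, 2.79% were higher and 2.54% lower. The pair has no replicate, so no difference was tested. Cd55 entered through the 2i array alone and Cd59a through the S array alone, which favours a call in those directions. Cd55 lay just past the threshold, and its log2 difference was 0.99 with a pseudocount of 16. Cfp is X-linked. The 367 X-linked genes entered had a median of 0.29 on the same scale, 12 of them lay above Cfp, and the part of this shift in the Cfp difference was not tested.

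Genes listed as fibroblast, epithelial, mesothelial and macrophage markers also differed between these ESC arrays. All 5 fibroblast markers that entered had lower values on the 2i array, 1 of them by at least 2-fold, Dcn (80.8 against 307 units, 3.77-fold), which encodes the proteoglycan decorin and entered through the S array alone. Of 6 epithelial markers 5 had lower values, 3 of them by at least 2-fold. These 3 were the claudin gene Cldn6 (5.69-fold), the adhesion gene Epcam (2.97-fold) and the keratin gene Krt8 (2.48-fold). Cldn4 had a higher value (1.69-fold). All 6 reached the floor on both ESC arrays, and which cells they came from was not tested. Of 3 mesothelial markers entered 1 was at least 2-fold higher, Msln (4.86-fold), and 2 had lower values. Of 3 macrophage markers entered 1 was at least 2-fold higher, Fcgr3 (2.83-fold), and 1 had a lower value. Msln and Fcgr3 entered through the 2i array alone, which favours a higher call. Over all genes entered, 2.79% were higher and 2.54% lower. How these marker differences relate to those of Cd59a, Cd55 and Cfp was not tested.

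**Figure D2:**
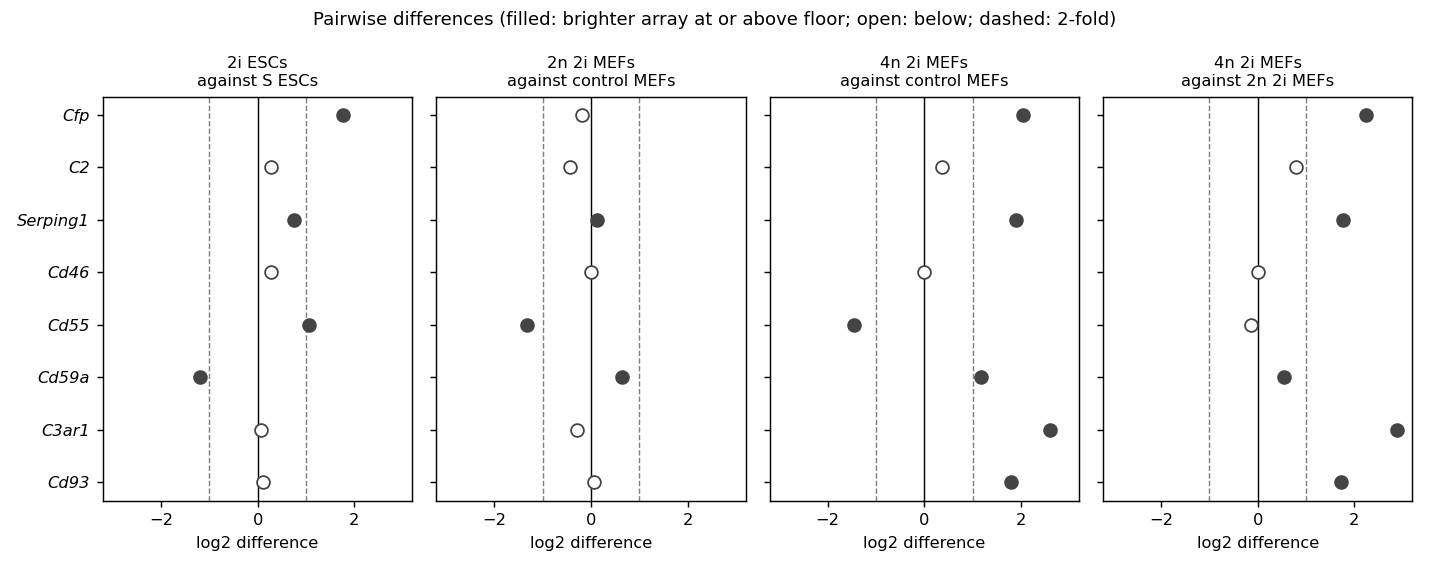
Log2 difference of each measured complement gene in 4 pairs of arrays, 1 panel per pair, with filled points where the brighter array reached its floor, open points where it did not, and dashed lines at 2-fold. Cd55 lies left of the line in both comparisons with control MEFs, and C3ar1, Cfp, Serping1 and Cd93 lie right of it in both panels of the 4n 2i MEFs.

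Between 2n 2i MEFs and control MEFs the members differed little apart from Cd55. Cd55 was 2.52-fold lower on the 2n array (log2 difference -1.33), and it lay at percentile 0.149 of the differences of all genes entered. Cd59a was 1.55-fold higher and Serping1 1.09-fold higher, both within the threshold. Of 8 measured members 3 entered, of which 1 was at least 2-fold lower and 0 higher. Over all 10082 genes entered, 0.427% were lower and 1.49% higher. C3ar1, Cd93, Cfp, C2 and Cd46 were below the floor on both arrays, with differences between -0.42 for C2 and 0.06 for Cd93. Cd55 entered through the control array alone. All 5 mesothelial markers were at least 2-fold higher on the 2n array, with a median of 2.13 and Upk3b at 7.43-fold, while 0 of 15 macrophage markers were. Of these mesothelial markers only Upk1b was above the floor on the control array. The part of mesothelial cells in the Cd55 difference was not tested.

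The 4n 2i MEF array differed most from the control. C3ar1 was 6.10-fold higher (log2 difference 2.61), Cfp 4.13-fold (2.05), Serping1 3.72-fold (1.90), Cd93 3.46-fold (1.79) and Cd59a 2.25-fold (1.17). Cd55 was 2.75-fold lower (-1.46). C2 was below the floor, at 1.28-fold, and Cd46 had the same deposited value on both arrays.

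Of 8 measured members 6 entered, 5 of them at least 2-fold higher and 1 lower. Over all 10271 genes entered, 5.28% were higher and 3.44% lower. The members were chosen with earlier results of these data known, so this contrast is no test of the group. C3ar1, Cfp and Cd93 entered through the 4n array alone, so that their entry favours a higher call, as the entry of Cd55 through the control array favours a lower one. The median difference over the 8 measured members was 1.48, beside 0 over all 19938 genes measured. This comparison and the previous one share the control array, on which Cd55 had its highest value.

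Macrophage markers moved with these members. Of 15 measured 12 entered, and all 12 were at least 2-fold higher on the 4n array. The shares over all genes entered were 5.28% higher and 3.44% lower. The median over the 15 was 2.55. Cd68, Lyz2 and Cd53 reached the floor on the control array too, and the other 9 entered through the 4n array alone, which favours a higher call. Lyz2, the lysozyme of myeloid cells, had 5913 against 689 units (8.57-fold). Csf1r, the receptor that macrophages need for survival, had 481 against 143 (3.36-fold), and Fcer1g, an adaptor of Fc receptors, 3108 against 172 (18.0-fold). All 5 mesothelial markers were also higher, as they were on the 2n array, among them Upk3b (14.8-fold), and so were 2 of 9 fibroblast markers. The part of any of these cell types in the complement differences was not tested.

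Endothelial markers were examined because Cd93 is also an endothelial gene. Of 10 measured, 0 were at least 2-fold higher on the 4n array and 1 was lower, Eng (3.35-fold), among the 3 that reached a floor. Over all genes entered, 5.28% were higher and 3.44% lower, so few or no calls in short lists such as these are uninformative. Emcn had 179 against 58.9 units, both below the floor. The defining endothelial genes Pecam1 and Cdh5 had the same deposited values on all MEF arrays, at 85.2 and 105 units, below the floor. Serping1 and C2 are known interferon-inducible genes. Of 15 interferon response genes listed 12 were measured and 7 entered. Of these 0 were at least 2-fold higher or lower, and the median was -0.06. The part of endothelial cells or of interferon in the complement differences was not tested.

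**Figure D3:**
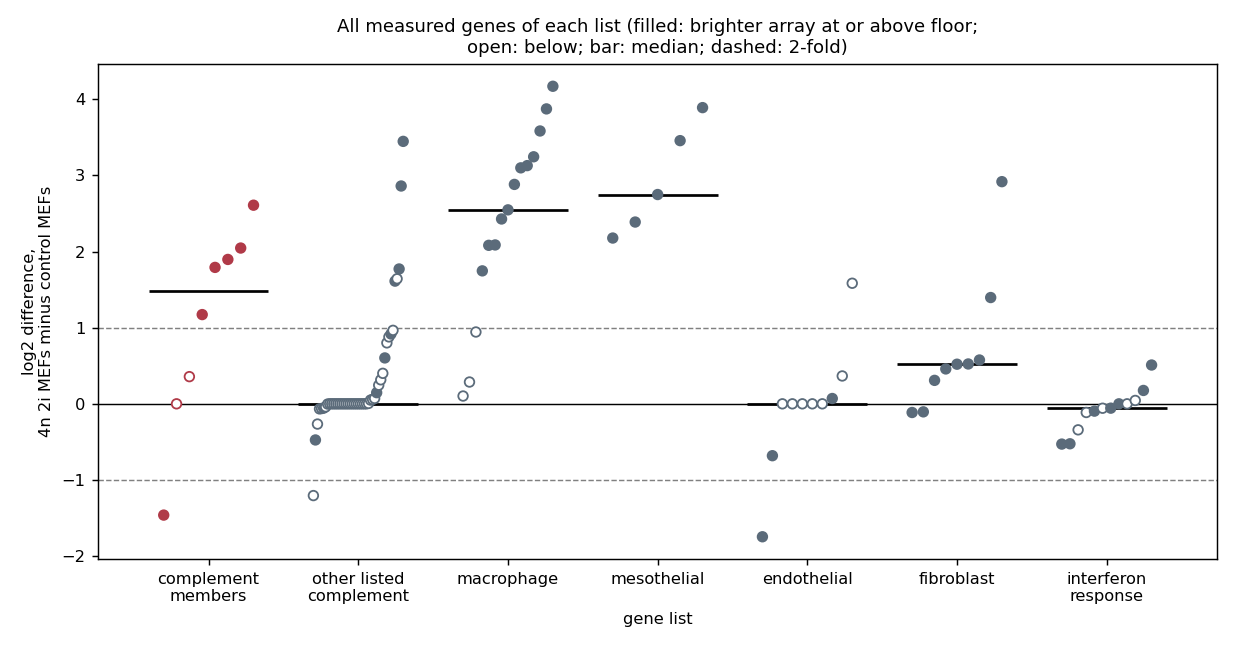
Log2 difference, 4n 2i MEFs minus control MEFs, for all measured genes of 7 lists, with filled points where the brighter array reached its floor, bars at the median of each list and dashed lines at 2-fold. The complement members spread from -1.46 to 2.61 with a median of 1.48, below the macrophage median of 2.55, and the interferon genes lie around 0.

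Set against the 2n 2i MEF array, the 4n array showed the same members high apart from Cd59a. C3ar1 was 7.41-fold higher, Cfp 4.72-fold, Serping1 3.41-fold and Cd93 3.31-fold. Cd59a was within the threshold at 1.45-fold. Of 8 measured members 5 entered, 4 of them at least 2-fold higher and 0 lower. Over all 10251 genes entered, 3.34% were higher and 2.36% lower. C3ar1, Cfp and Cd93 again entered through the 4n array alone, and Serping1 was above the floor on both. Cd55, with 205 units on the 4n and 224 on the 2n array, was below the floor on both.

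The wider complement list held 51 further genes by role, of which 45 were measured. On the 4n against the control MEF array 9 of the 45 entered. Of these 4 were at least 2-fold higher and 0 lower, beside 5.28% and 3.44% of all genes entered. These were C1s1 (610 against 55.0 units, 10.9-fold) and C1ra (363 against 106, 3.41-fold), the proteases of the C1 complex, Clu (2273 against 312, 7.27-fold), encoding clusterin, a fluid-phase inhibitor of the attack complex, and C5ar1 (262 against 85.0, 3.06-fold), the receptor for C5a. C1s1 and C1ra are the targets of C1 inhibitor, the product of Serping1. C1s1, C1ra and C5ar1 entered through the 4n array alone, which favours a higher call, and Clu was above the floor on both. The median was 0.92 over the 9 that entered and 0 over all 45, most of which were below the floor on both arrays.

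On the 2n against the control array 6 of the 45 entered. Of these 1 was higher and 0 lower, beside 1.49% and 0.427% of all genes entered. It was Masp1, a protease of the lectin route, at 1964 against 508 units (3.86-fold). Masp1 had 961 units on the 4n array, 1.89-fold above the control and 2.04-fold below the 2n array. For the 4n against the 2n array 9 of the 45 entered. The same 4 genes that were higher against the control were higher here, and 1, Masp1, was lower. Over all genes entered, 3.34% were higher and 2.36% lower.

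On the 2i against the S ESC array 10 of the 45 entered, 2 of them higher, Susd4 and Cpn1, and 0 lower. Susd4 (944 against 347 units, 2.71-fold) encodes a membrane inhibitor of complement. Cpn1 (1341 against 657, 2.04-fold) encodes a subunit of the carboxypeptidase that inactivates C3a and C5a. The shares over all genes entered were 2.79% higher and 2.54% lower.

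In the ESC and MEF comparison 5 of 15 tested were higher in ESCs and 3 lower, beside 16.6% and 16.3% of all genes tested, so the share called lower was near the background. The 5 called higher were below the floor on every MEF array, and Masp1 and Cr1l, called lower, on both ESC arrays, so that their entry favours these calls. Colec12 was above the floor on all 5 arrays. Higher were Cd59b (log2 difference 2.48, adjusted p in limma 0.000293), Cpn1 (3.10), Masp2 (2.04), Susd4 (1.97) and the terminal component C8g (1.33). Lower were Masp1 (-2.95), the scavenger lectin Colec12 (-2.79) and Cr1l (-1.17), which encodes Crry, the main membrane regulator of C3 in mice. Adjusted p values in limma for the other 7 lay between 0.00123 and 0.0325. The p of Cd59b rests on 3 identical MEF values, and those of Masp2, C8g and Cr1l on a pair of identical MEF values, so they hold no measured spread between those arrays.

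The paralogues Cd59b and Cd59a thus had opposite directions, Cd59b with 356 and 308 units on the 2i and S ESC arrays and the same deposited value of 58.6 on every MEF array. Cross-hybridisation between them was not tested. Cr1l had 169 units on the 2i ESC array, 116 on the S ESC array, 306 on both the 2n and control MEF arrays and 339 on the 4n array. Of the terminal components C6, C7, C8a, C8b, C8g and C9, only C8g reached a floor, on the 2i ESC array at 292 units.

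**Figure D4:**
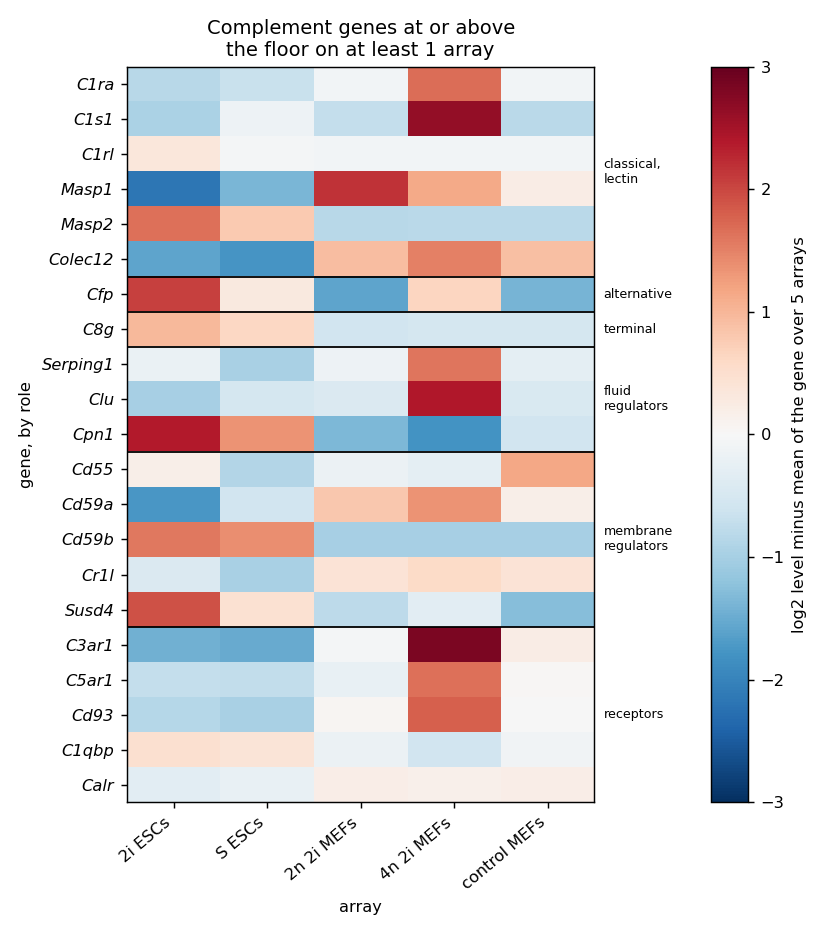
Log2 level of 21 complement genes that reached the floor on at least 1 array, each minus the mean of that gene over the 5 arrays (colour), in rows by role and 1 column per array. C1ra, C1s1, Serping1, Clu, C3ar1, C5ar1 and Cd93 are highest on the 4n 2i MEF array, and Masp2, C8g, Cpn1, Cd59b and Susd4 on the ESC arrays.

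Genes with the most similar profiles were found by the root mean square distance between log2 profiles over the 5 arrays, each centred on its own mean, among 11409 named genes. The nearest gene to Cd93 was Csf1r, at a distance of 0.034, and its 5 values (74.1, 72.5, 143, 481 and 143 units in the order 2i ESCs, S ESCs, 2n, 4n and control MEFs) followed those of Cd93 closely. Fbln7 (0.10) and Dock10 (0.16) came next for Cd93. The nearest to C3ar1 were Itga8 (0.16), an integrin chain, Msr1 (0.18), a scavenger receptor of macrophages, and Fam180a (0.20). Cd93, Csf1r, C3ar1 and Msr1 each reached the floor on the 4n array alone, so their likeness rests largely on that array. Csf1r also had the same deposited value on the 2n and control arrays. The nearest to Serping1 were Rgs5 (0.14), Bri3 (0.19) and Osr2 (0.19).

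Cfp had no such close partner. Its nearest genes were Acp5 (0.36), the tartrate-resistant acid phosphatase of osteoclasts and macrophages, Syngr1 (0.38) and Nckap1l (0.44), an actin regulator of blood cells, and all had their highest value on the 2i ESC array. The nearest to Cd55 were St3gal6 (0.23), Cd40 (0.25) and Lmo7 (0.29), and to Cd59a Crabp2 (0.21), Ddit3 (0.24) and Creb3l1 (0.25). These distances rest on 5 arrays and describe likeness of levels only.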

How the data were processed

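A single table deposited by the authors holds linear intensity values of 28853 probe sets on 5 arrays. RNA was biotin-labelled with an Affymetrix whole-transcript kit, per the labels' protocols. The background correction, summarisation and normalization of the intensities are unstated in the sources used here, and arrays have no sequencing depth, so their number limits the precision. Analysis used log2(intensity + 1). Of the probe sets, 21789 named 1 gene, 1621 several and 5443 none. Current symbols came from RefSeq (GRCm38.p6) by Entrez Gene number, with 21698 matched, and the brightest probe set stood for a gene. Pairs of arrays were compared by log2 difference at 2-fold without a test. ESC (2) and MEF (3) arrays were compared over all genes with limma 3.58.1 (R 4.3.3, lmFit, eBayes, Benjamini-Hochberg), with 3 residual degrees of freedom. The code was also run on simulated data that held no identical values between arrays. That run cannot show how limma treats the identical MEF values here. Members and lists were chosen with earlier results of these data known. All members were named, with any measured gene of the complement list and the 3 genes nearest in profile. Python 3.11.15 was used.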

Additional observations from a re-analysis of the deposited data

How the results depend on the processing

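No paired analysis was possible because each group had 1 array. Alternatives were a pseudocount of 16, a 3-fold threshold, the mean of probe sets, quantile normalization, a 75th percentile floor or none and, for ESC against MEF arrays, a robust prior with an intensity trend and omission of single arrays. No member's difference reversed its direction while called. With the floor at the 75th percentile, the 2i against S ESC pair kept 1 member higher and 0 lower (205 genes called in all), 2n against control MEFs 0 lower (80 genes), 4n against control MEFs 3 higher and 0 lower (505 genes), 4n against 2n MEFs 2 higher (307 genes), and ESC against MEF arrays 2450 genes. At 3-fold, the 2i against S ESC pair had 1 member higher and 0 lower (182 genes), 2n against control MEFs 0 lower (53 genes), 4n against control MEFs 0 lower (378 genes), 4n against 2n MEFs 204 genes, and ESC against MEF arrays 2106 genes. These follow from fewer genes passing. In the main setting those comparisons called 558, 193, 895, 584 and 3890 genes. With a pseudocount of 16, 1 member was higher on the 2i than on the S ESC array. Leaving out each array gave 0 to 1 member lower and 0 to 1 higher in ESCs. Signals near the floor limit what Cd46, C2 and, outside the 4n array, C3ar1 and Cd93 can show.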
